A study of Mus musculus with 22 samples.

Results

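Open chromatin was followed at 9 mouse genes of the urea cycle and of amino acid breakdown, which are Cps1, Ass1, Arg1, Gls2, Tdo2, Tat, Hpd, Hal and Sds. Every deposited ATAC-seq peak whose annotated gene was one of these, and whose distance to that gene's transcription start was at most 50 kb, was taken. This gave 80 of the 68827 peaks in the table, each 200 bases long, and 9 of the 15686 genes with a peak inside that distance. Tat had 15 peaks, Hpd 14, Arg1 12, Cps1 10, Ass1 9, Tdo2 8, Gls2 and Hal 5 each, and Sds 2. A further 6 peaks of these genes lay farther away and were left out.

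ATAC-seq, in which a transposase cuts DNA where chromatin is open, was run on liver nuclei pulled down on beads by INTACT from male HEP-INTACT mice, a tag-based method for the nuclei of 1 cell type, here hepatocytes. The sources used here give neither what drives the tag nor the age of the mice. Groups on the FPC diet (fructose, palmitate and cholesterol) were fed for 20 weeks, and the 3 advanced and 4 mild libraries were told apart by liver histology, with significant fibrosis in the advanced group alone and steatosis and inflammation in both. The CDAHFD groups (high in fat, amino acid-defined and lacking choline) were fed for 7 weeks and also gave 3 advanced and 4 mild libraries. Each arm had 4 control libraries from mice on a low-fat diet for the same number of weeks. All 22 libraries carry a number of their own in their titles, taken here to mean that each is 1 mouse.

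The urea cycle turns the ammonia released by amino acid breakdown into urea, and in the liver it runs mainly in hepatocytes near the portal vein. Liver enzymes such as Tdo2, Tat, Hal and Sds take the first steps in the breakdown of tryptophan, tyrosine, histidine and serine, and several are known to respond to glucagon and glucocorticoids. Most of these genes are highly expressed in hepatocytes and in few other cells.

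The counts used here measure how open the chromatin near a gene is, not how much of its RNA is made. Libraries held about 3785070 to 9328960 counts in peaks. A gene's sum adds the counts of its peaks and is given in CPM, the count scaled to a common library total after TMM scaling, so sums of genes with unequal numbers of peaks are not compared with each other. Differences are log2 fold changes ± SE from edgeR's quasi-likelihood test fitted to all genes or all peaks, and calls were made where the p adjusted by Benjamini-Hochberg was under 0.05.

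Of 8 hepatocyte markers 7 had peaks, with a summed level of 1211 to 1393 CPM in FPC advanced and 1585 to 1758 CPM in FPC control libraries, and of 1287 to 1371 CPM in CDAHFD advanced and 1558 to 1699.8 CPM in CDAHFD control libraries. In each advanced group 6 of these 7 were called lower and none higher (median log2 change −0.48 on FPC and −0.33 on CDAHFD). Over all genes 30.5% were called lower on FPC and 30% on CDAHFD. Of 6 bile duct cell markers 5 had peaks, and all 5 were called higher in both advanced groups; they summed to 132 to 184 CPM in FPC advanced against 59.0 to 75.1 CPM in FPC control libraries, and to 109 to 135 CPM in CDAHFD advanced against 59.6 to 71.3 CPM in CDAHFD control libraries. Of the stellate cell, macrophage and lymphocyte markers 2 of 8, 3 of 8 and 2 of 7 had peaks, and Lrat, Clec4f and Cd3e were among those with none. Of those with peaks, Col1a1 was called higher in both advanced groups (1.41 on FPC and 0.76 on CDAHFD), as was Csf1r (0.68 and 0.98), and Adgre1 in the FPC one alone (0.52), while Ptprc was lower (−0.94 and −0.72). Of the lymphocyte pair, Themis was lower (−1.19 on FPC and −0.79 on CDAHFD), and Cd8a was higher on CDAHFD (0.56, edgeR adjusted p 0.020) with 0.23 and no call on FPC. All 6 endothelial markers had peaks, of which Kdr (−1.23 and −1.08) and Tie1 (−0.95 and −1.62) were called lower in both advanced groups, Stab2 in the CDAHFD one alone, and none higher. The stellate, macrophage, endothelial and lymphocyte lists summed to 47.1 to 65.3, 33.9 to 35.3, 137 to 146 and 49.9 to 56.3 CPM in FPC advanced against 26.9 to 43.8, 34.7 to 48.1, 155 to 177 and 97.4 to 116 CPM in FPC control libraries. On CDAHFD these sums were 44.8 to 57.4, 33.9 to 39.6, 135 to 166 and 57.4 to 72.7 CPM in advanced against 37.6 to 50.8, 34.6 to 48.1, 177 to 218 and 96.5 to 111 CPM in control libraries. In these bulk libraries fewer hepatocyte nuclei and less open chromatin per nucleus cannot be told apart, and the part of these marker shifts in the results was not tested.

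The sequence before the transcription start was in the RefSeq promoter table (GRCm38.p6) for 5 of the 9 genes. The stretch that the peak at the start covers is printed for 3 genes whose start peak was lower in advanced livers of both diets (Tdo2, Hpd, Hal) and for 2 whose start peak was not called (Ass1, Tat), each 5′ to 3′ on the gene's strand and ending at or before the start. Capitals mark the motif matches.
Tdo2, chr3:81975765-81975964, minus strand: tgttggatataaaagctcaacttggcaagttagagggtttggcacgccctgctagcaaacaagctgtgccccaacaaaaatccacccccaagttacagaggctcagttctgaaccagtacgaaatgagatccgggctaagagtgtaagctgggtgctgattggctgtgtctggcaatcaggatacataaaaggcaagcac
Hpd, chr5:123182724-123182901, minus strand: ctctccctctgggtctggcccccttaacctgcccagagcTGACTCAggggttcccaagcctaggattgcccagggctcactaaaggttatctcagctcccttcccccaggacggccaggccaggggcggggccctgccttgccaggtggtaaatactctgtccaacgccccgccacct
Hal, chr10:93488518-93488709, plus strand: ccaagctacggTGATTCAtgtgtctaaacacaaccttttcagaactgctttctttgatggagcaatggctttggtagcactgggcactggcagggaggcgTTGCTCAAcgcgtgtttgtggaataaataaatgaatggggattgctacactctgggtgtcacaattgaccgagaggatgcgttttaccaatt
Ass1, chr2:31470084-31470269, plus strand: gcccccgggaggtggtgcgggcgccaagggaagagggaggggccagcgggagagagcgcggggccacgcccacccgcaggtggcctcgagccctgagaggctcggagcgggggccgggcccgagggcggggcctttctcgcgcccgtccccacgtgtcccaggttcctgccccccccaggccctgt
Tat, chr8:109990283-109990435, plus strand: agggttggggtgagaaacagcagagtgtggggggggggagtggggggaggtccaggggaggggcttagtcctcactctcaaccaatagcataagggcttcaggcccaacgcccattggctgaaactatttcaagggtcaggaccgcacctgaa

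The windows were searched on both strands for TGANTCA (AP-1), GGAATG (TEAD), TTNNGCAA (C/EBP), TGTTTAC (FOXA), CAAAGTCCA (HNF4), TGTTCT (1 arm of the glucocorticoid receptor site), TGACGTCA (CREB) and GTTAAT (1 arm of the HNF1 site). The Hpd window held 1 AP-1 match, which starts 139 bases before the transcription start, and 4.91% of all 32851 promoters hold one in the same window. The Hal window held 1 AP-1 match 239 bases and 1 C/EBP match 150 bases before the start, which do not overlap. In the Hal window, 5.28% of all promoters hold the AP-1 letters and 7.84% the C/EBP letters. The other 3 windows held none of the motifs, and over the 5 windows the share of all promoters with a match ran from 7.73% to 10.5% for TEAD, 1.85% to 2.55% for FOXA, 0.271% to 0.314% for HNF4, 9.80% to 13.1% for the glucocorticoid receptor letters, 0.728% to 1.46% for CREB and 3.82% to 5.30% for the HNF1 letters.

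The Ass1 window stood apart in base composition. Its bases were 78.5% G or C with 18 CG pairs, while the median over all promoters at the same positions was 53.2% and 4. The Tdo2, Hpd, Hal and Tat windows held 48.5%, 64.0%, 46.4% and 58.8% G or C, with 3, 4, 6 and 2 CG pairs.

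In the first comparison, FPC advanced against FPC control livers, 8 of the 9 gene sums fell and none rose. The median log2 change of the 9 was −0.56, against 0.01 over all 15686 genes, of which 30.5% were called lower and 30.7% higher. In CDAHFD advanced against CDAHFD control livers 5 of 9 fell and none rose, with a median of −0.29 against −0.01 over all genes, of which 30% were lower and 28.5% higher. In mild livers 6 of 9 fell on FPC, where 20.6% of all genes were called lower and 19.7% higher, and 4 of 9 fell on CDAHFD, where 23.3% were lower and 22.1% higher. Cps1, Arg1 and Hal fell in all 4 comparisons with control, and the share of all genes that fell in all 4 was not counted.

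**Figure D1:**
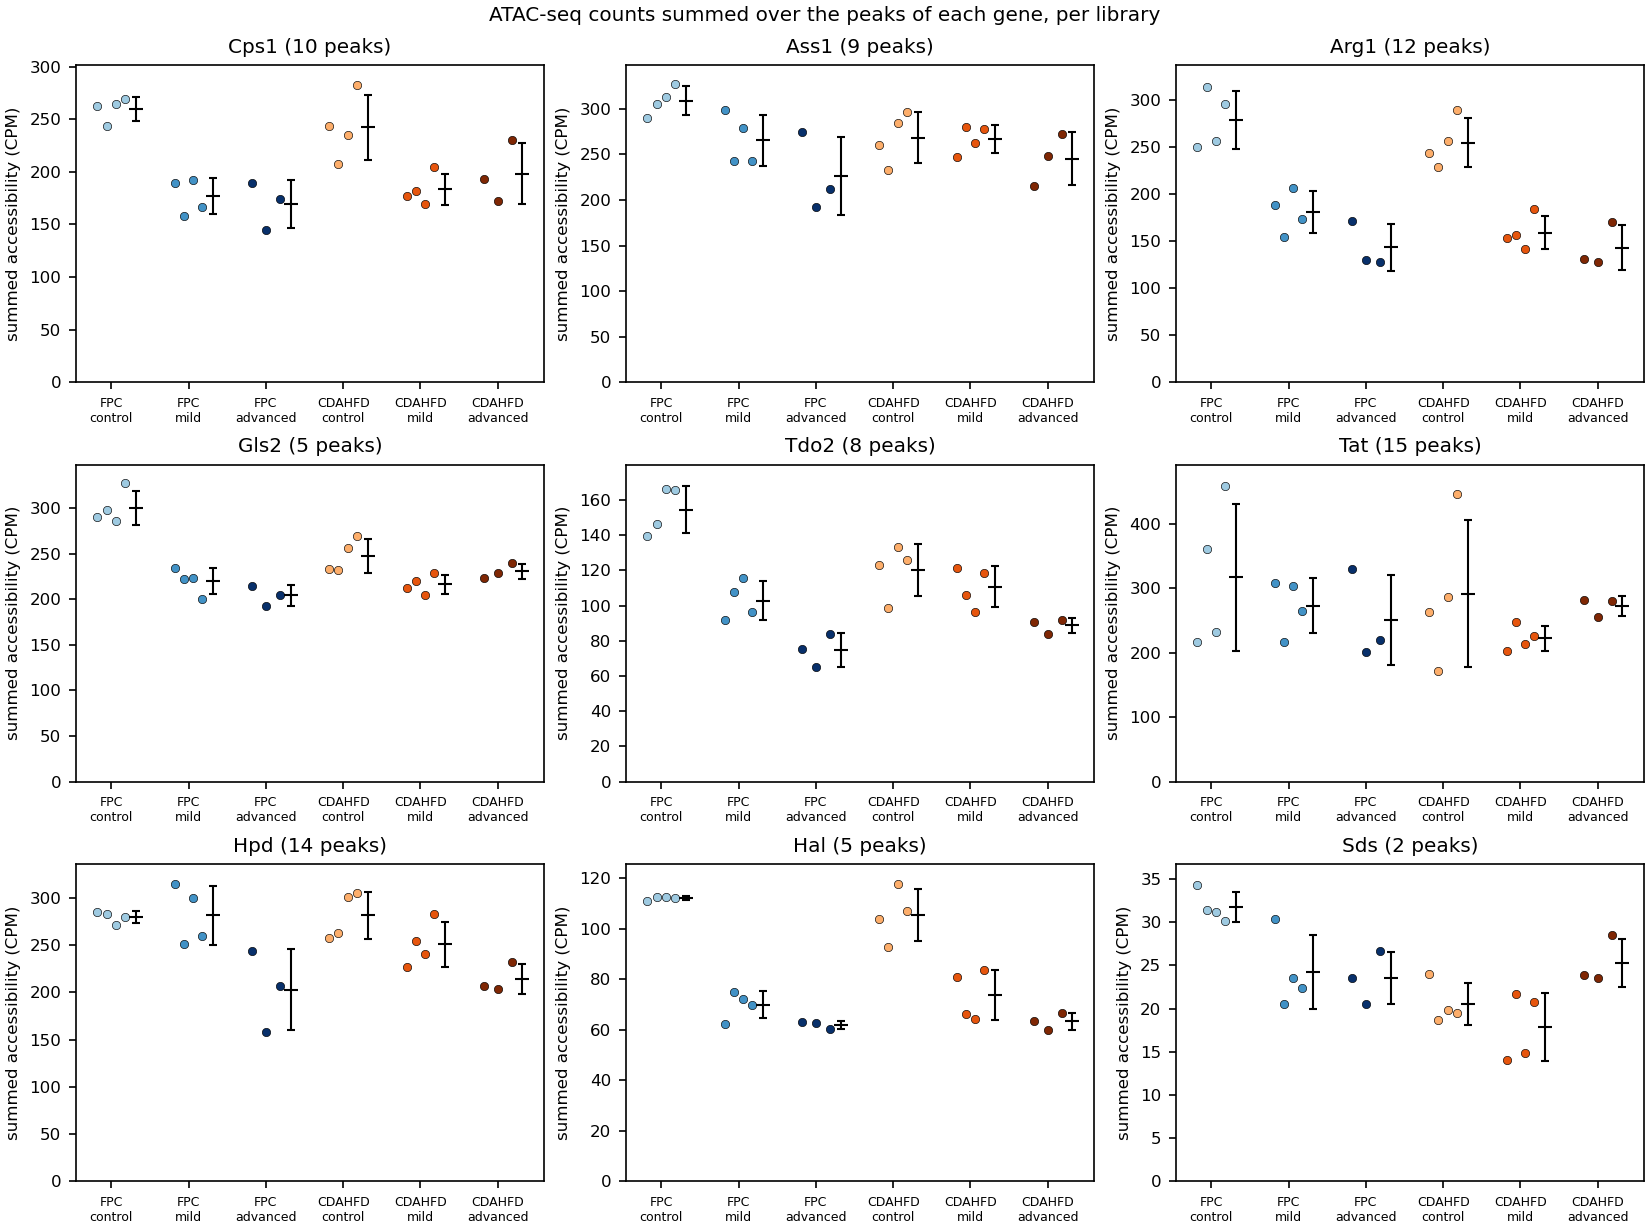
Summed accessibility of each gene in CPM (vertical axis, from 0) in every library, by diet and stage (horizontal axis); points are libraries, and the black bar beside them is the mean ± SD. Arg1 and Hal step down in both diets, Hpd stays level in FPC mild livers, and Tat scatters widely in both control groups.

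**Figure D2:**
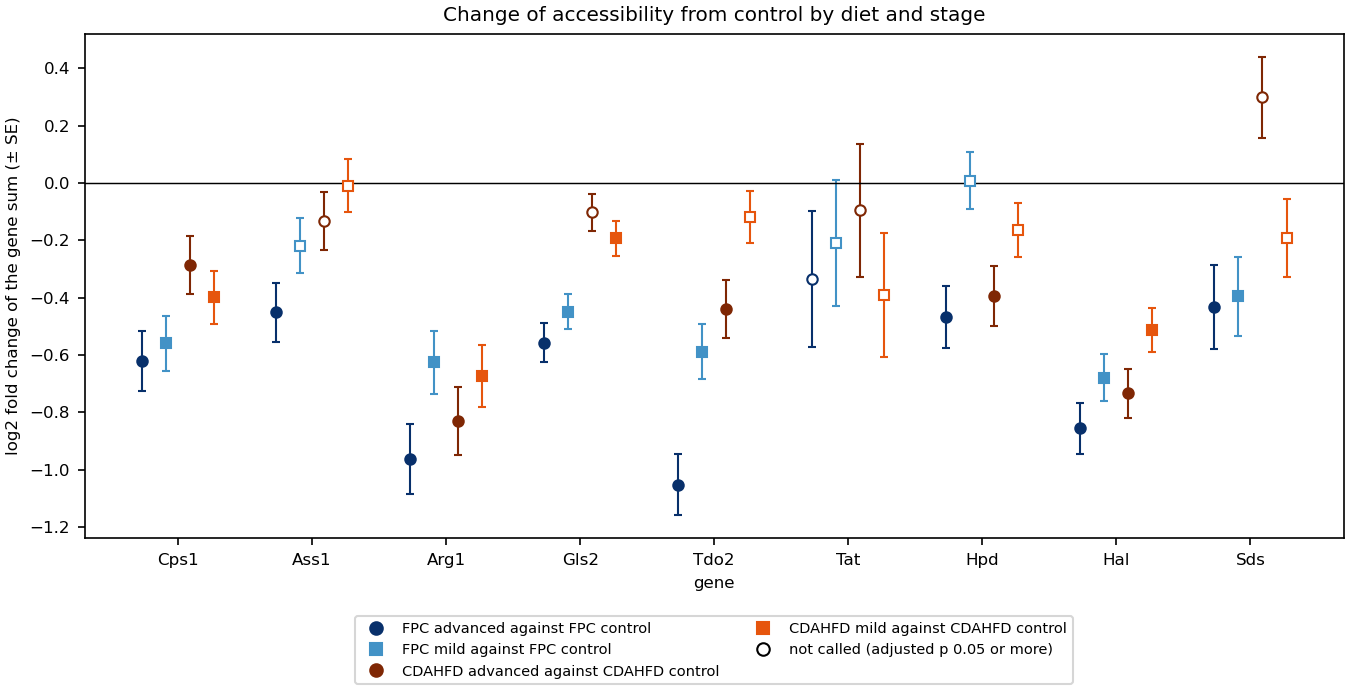
Log2 fold change of each gene sum ± SE (vertical axis) for advanced and mild livers against control in each diet; filled points were called and open points were not. Most FPC advanced points lie lowest, and Tat is open in all 4 comparisons.

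Of the urea cycle enzymes, Cps1 makes carbamoyl phosphate from ammonia in the mitochondrion and is the entry point of the cycle. Its sum was 263, 244, 264 and 269 CPM in FPC control libraries, 189.7, 158, 192 and 167 CPM in FPC mild and 189, 144 and 175 CPM in FPC advanced libraries. Neither the mild nor the advanced libraries overlapped the controls, and they overlapped each other. The change was −0.62 ± 0.10 in advanced (edgeR adjusted p 1.9e-05) and −0.56 ± 0.10 in mild FPC livers (adjusted p 1.0e-04), so the mild value was 89.9% of the advanced one. On CDAHFD the sum was 243, 208, 235 and 283 CPM in control, 177, 182, 169.9 and 204 CPM in mild and 193, 172 and 230.0 CPM in advanced libraries. The advanced CDAHFD libraries overlapped their controls and the mild ones did not. The CDAHFD change was −0.40 ± 0.09 in mild and −0.29 ± 0.10 in advanced livers (edgeR adjusted p 0.0013 and 0.018), and advanced against mild was not called (0.11 ± 0.10). The advanced CDAHFD call was lost without control replicate 4, advanced replicate 1 or advanced replicate 2 (edgeR adjusted p 0.082, 0.062 and 0.13). It was also lost with peaks beyond 1 kb only (−0.14 ± 0.09, adjusted p 0.20), and Cps1 was at −0.56 ± 0.13 with peaks within 1 kb only. The start peak is the only Cps1 peak within 1 kb. Each setting was scaled on its own peaks, so these values have unlike baselines. Over all genes the median peak change was 0.11 within 1 kb and −0.11 farther out.

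Along the Cps1 locus, 7 of 10 peaks were called lower in FPC advanced livers, where 28% of all peaks were. In CDAHFD advanced livers it was 2 of 10, no larger a share than the 28.8% of all peaks. The peak at the start (chr1:67122856-67123056, mm10, promoter) held 25.1, 20.5 and 24.0 CPM in FPC advanced libraries and 30.0, 28.4, 35.1 and 31.4 CPM in FPC control libraries, and it changed by −0.44 ± 0.14 on FPC and −0.44 ± 0.13 on CDAHFD (edgeR adjusted p 0.010 and 0.0065). Its FPC call was lost without advanced replicate 2 (adjusted p 0.067). The strongest loss was 20738 bases upstream (chr1:67102189-67102389, intergenic), where FPC advanced libraries had 4.05, 2.14 and 1.91 CPM against 8.24, 6.36, 9.08 and 7.59 CPM in FPC controls. It fell by 1.56 ± 0.27 on FPC and by 0.99 ± 0.25 on CDAHFD (edgeR adjusted p 2.4e-05 and 0.0017), and in both diets all advanced libraries lay below all controls.

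Ass1 joins citrulline and aspartate and sets much of the pace of the cycle. Its sum was 275, 192 and 212 CPM in FPC advanced libraries, against 289.5, 305, 314 and 327 CPM in FPC controls, with no overlap, and fell by 0.45 ± 0.10 (edgeR adjusted p 6.5e-04), or by 0.28 ± 0.09 with loess offsets. The other comparisons with control were not called. The means were 266 ± 27.8 CPM in FPC mild, 267 ± 15.4 CPM in CDAHFD mild, 245 ± 29.0 CPM in CDAHFD advanced and 269 ± 28.1 CPM in CDAHFD control livers (SD, n = 4, 4, 3 and 4). The FPC mild change of −0.22 ± 0.10 had an edgeR adjusted p of 0.071, and leaving out FPC mild replicate 1 or FPC advanced replicate 1 brought it to 0.043 and 0.035. The advanced change on CDAHFD was −0.13 ± 0.10.

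In the main fit the CG-rich start peak of Ass1 was not called in any comparison: 50.9, 45.6 and 43.0 CPM in FPC advanced libraries against 45.1, 48.5, 50.8 and 55.9 CPM in FPC controls, with log2 changes between −0.11 and 0.08 in the 4 comparisons with control. It is the only Ass1 peak within 1 kb. Scaled anew on all peaks within 1 kb, it was lower in the mean advanced change of both diets (−0.18 ± 0.06, edgeR adjusted p 0.012). That call rests on another baseline. Of the 9 Ass1 peaks, 4 upstream ones were called lower in FPC advanced livers, where 28% of all peaks were. The strongest lay 16523 bases upstream (chr2:31453647-31453847, intergenic) and fell by 0.73 ± 0.14 on FPC (edgeR adjusted p 1.2e-04), with −0.09 ± 0.14 on CDAHFD. A peak 5649 bases upstream, named after its values were seen, was the only Ass1 peak called lower in advanced livers of both diets, by −0.33 ± 0.10 and −0.23 ± 0.10.

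Arg1, which splits arginine into urea and ornithine, fell in both diets, and the difference between their advanced changes was −0.13 ± 0.17 and not called. On FPC its sum was 250.1, 314, 256 and 295 CPM in control, 189, 154, 206 and 173 CPM in mild and 171, 129.7 and 128 CPM in advanced libraries. On CDAHFD it was 243, 229, 256 and 289 CPM in control, 153, 157, 141 and 184 CPM in mild and 131, 128 and 170.2 CPM in advanced libraries. In both diets all mild and all advanced libraries lay below all controls. Arg1 fell by 0.96 ± 0.12 in FPC advanced and by 0.83 ± 0.12 in CDAHFD advanced livers (edgeR adjusted p 3.8e-07 and 2.2e-06), and by 0.63 ± 0.11 and 0.67 ± 0.11 in mild livers (edgeR adjusted p 1.3e-04 and 2.3e-05). The further step of −0.34 ± 0.12 between FPC advanced and FPC mild livers (edgeR adjusted p 0.036) was lost without FPC mild replicate 1 or 3 or FPC advanced replicate 2 or 3 (adjusted p 0.075 to 0.18). It was also lost with loess offsets and with peaks within 1 kb or beyond 1 kb only (−0.27, −0.49 and −0.20, adjusted p 0.080, 0.14 and 0.14), and was −0.55 ± 0.13 with peaks within 10 kb.

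Of the 12 Arg1 peaks, 10 were called lower in advanced livers of both diets, where 21.5% of all peaks were. That was more than for any other of the 9 genes. The 2 Arg1 peaks that were not lie about 31 kb upstream, at distances of 31754 and 30979 bases. The peak at the start (chr10:24927407-24927607, promoter) held 17.5, 9.83 and 11.8 CPM in FPC advanced libraries against 20.4, 32.9, 22.5 and 25.04 CPM in FPC controls, and 10.7, 8.34 and 14.2 CPM in CDAHFD advanced libraries against 24.0, 17.1, 28.3 and 32.8 CPM in CDAHFD controls. It fell by 0.95 ± 0.25 and 1.19 ± 0.24 (edgeR adjusted p 0.0019 and 1.1e-04). A group of 5 peaks between 20520 and 24849 bases upstream, formed after their values were seen, was lower as well, and its member with the smallest p, at 22050 bases (chr10:24949420-24949620, intergenic), had 8.43, 4.27 and 5.73 CPM in FPC advanced libraries against 16.0, 24.9, 16.1 and 20.2 CPM in FPC controls. There the change was −1.65 ± 0.26 on FPC and −1.79 ± 0.26 on CDAHFD (edgeR adjusted p 8.9e-06 and 1.8e-06), and it was −1.12 ± 0.23 and −1.59 ± 0.23 in mild livers. A peak in the first intron at 2985 bases, also named after its values were seen, overlaps an endogenous retrovirus repeat (RLTR11B) in the deposited annotation and fell by 1.27 ± 0.22 on FPC and 1.03 ± 0.21 on CDAHFD.

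Gls2, the liver glutaminase, frees ammonia from glutamine and so feeds Cps1. On FPC its sum was 290.4, 298, 285 and 327 CPM in control, 234, 222, 223 and 200.2 CPM in mild and 215, 192 and 205 CPM in advanced libraries, and neither the mild nor the advanced libraries overlapped the controls. It fell by 0.56 ± 0.07 in advanced and 0.45 ± 0.06 in mild FPC livers (edgeR adjusted p 1.6e-07 and 6.7e-06). On CDAHFD it was 233, 232, 256 and 269.8 CPM in control, 212, 220.0, 204 and 229 CPM in mild and 224, 229 and 240.0 CPM in advanced libraries, and only the mild change of −0.19 ± 0.06 was called (edgeR adjusted p 0.011). That call was lost without CDAHFD control replicate 3 or 4 (adjusted p 0.056 and 0.052). The advanced change on CDAHFD was −0.10 ± 0.06.

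The 5 Gls2 peaks did not behave alike. The peak in an exon 5023 bases past the start (chr10:128199558-128199758, exon 3 of 18 of NM_001033264) held 12.5, 7.41 and 10.5 CPM in FPC advanced libraries against 23.3, 29.2, 20.8 and 36.4 CPM in FPC controls, and fell by 1.43 ± 0.22 on FPC and by 0.85 ± 0.21 on CDAHFD (edgeR adjusted p 4.1e-06 and 0.0014). The peak nearest the start (chr10:128194390-128194590, promoter) held 51.3, 46.4 and 49.0 CPM in FPC advanced libraries against 60.3, 61.5, 62.0 and 67.0 CPM in FPC controls, a fall of 0.36 ± 0.07 (edgeR adjusted p 1.4e-04). On CDAHFD the same peak held 51.7, 56.4 and 51.5 CPM in advanced against 45.8, 48.8, 48.8 and 54.3 CPM in control libraries, which overlap, with a change of 0.11 ± 0.07. The exon peak makes up 7.36% of the gene's mean level. The 2 promoter peaks overlap each other, as do the 2 in intron 7.

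Tdo2 opens the tryptophan ring and is the entry to the kynurenine route in the liver. Its sum on FPC was 139, 146, 166 and 165 CPM in control, 91.7, 107, 116 and 96.4 CPM in mild and 75.1, 65.2 and 83.9 CPM in advanced libraries, and no pair of these groups overlapped. It fell by 1.05 ± 0.11 in advanced and by 0.59 ± 0.10 in mild FPC livers (edgeR adjusted p 1.2e-08 and 5.3e-05), and the step between these stages was −0.46 ± 0.11 (edgeR adjusted p 0.0017). On CDAHFD it was 123, 98.7, 133 and 126 CPM in control, 121, 106, 96.2 and 119 CPM in mild and 90.5, 83.7 and 92.0 CPM in advanced libraries. Here only the advanced stage fell against control, by 0.44 ± 0.10 (edgeR adjusted p 7.0e-04), and the mild change was −0.12 ± 0.09. The CDAHFD step of −0.32 ± 0.10 between advanced and mild (edgeR adjusted p 0.030) was lost without mild replicate 1 or 4 or without any 1 of the advanced libraries (adjusted p 0.051 to 0.13). With peaks within 10 kb only, which leaves out the 5 peaks near the gene end described next, the advanced falls were 0.61 ± 0.08 on FPC and 0.19 ± 0.07 on CDAHFD, still called (edgeR adjusted p 4.2e-07 and 0.027), and the CDAHFD step was not (−0.16 ± 0.07, adjusted p 0.15).

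The start peak of Tdo2, whose sequence is printed above, held 40.5, 32.8 and 41.4 CPM in FPC advanced libraries against 53.8, 56.5, 55.6 and 62.2 CPM in FPC controls, and fell by 0.58 ± 0.08 on FPC and 0.25 ± 0.08 on CDAHFD (edgeR adjusted p 1.9e-06 and 0.0086). The largest losses of any of the 80 peaks in FPC advanced livers were in 5 peaks that lie 18372 to 19884 bases from the start. They lie 1056 to 2568 bases past the annotated end of Tdo2, and the deposited annotation puts them at the end and in the last exon of Ctso, the neighbouring gene of a cathepsin. The member of this group with the smallest p (chr3:81956459-81956659) had 2.70, 2.14 and 4.45 CPM in FPC advanced libraries against 13.8, 11.9, 17.8 and 17.2 CPM in FPC controls. It fell by 2.31 ± 0.31 on FPC and by 1.16 ± 0.29 on CDAHFD (edgeR adjusted p 7.0e-07 and 0.0013).

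The 5 end peaks together, a group formed after their values were seen, summed to 10.96, 8.97 and 14.5 CPM in FPC advanced against 42.6, 46.1, 60.8 and 55.6 CPM in FPC control libraries, and to 13.1, 13.2 and 15.9 CPM in CDAHFD advanced against 35.2, 18.8, 42.3 and 28.5 CPM in CDAHFD control libraries. The other 3 Tdo2 peaks summed to 56.3, 50.7 and 60.8 CPM in FPC advanced against 74.6, 76.4, 80.7 and 84.5 CPM in FPC control libraries, with no overlap. On CDAHFD they summed to 65.5, 62.1 and 64.4 CPM in advanced against 67.5, 64.8, 69.4 and 77.8 CPM in control libraries, which overlap. Neither set of advanced libraries overlapped its controls in the end peaks. Which of the 2 genes the end peaks serve was not tested.

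**Figure D3:**
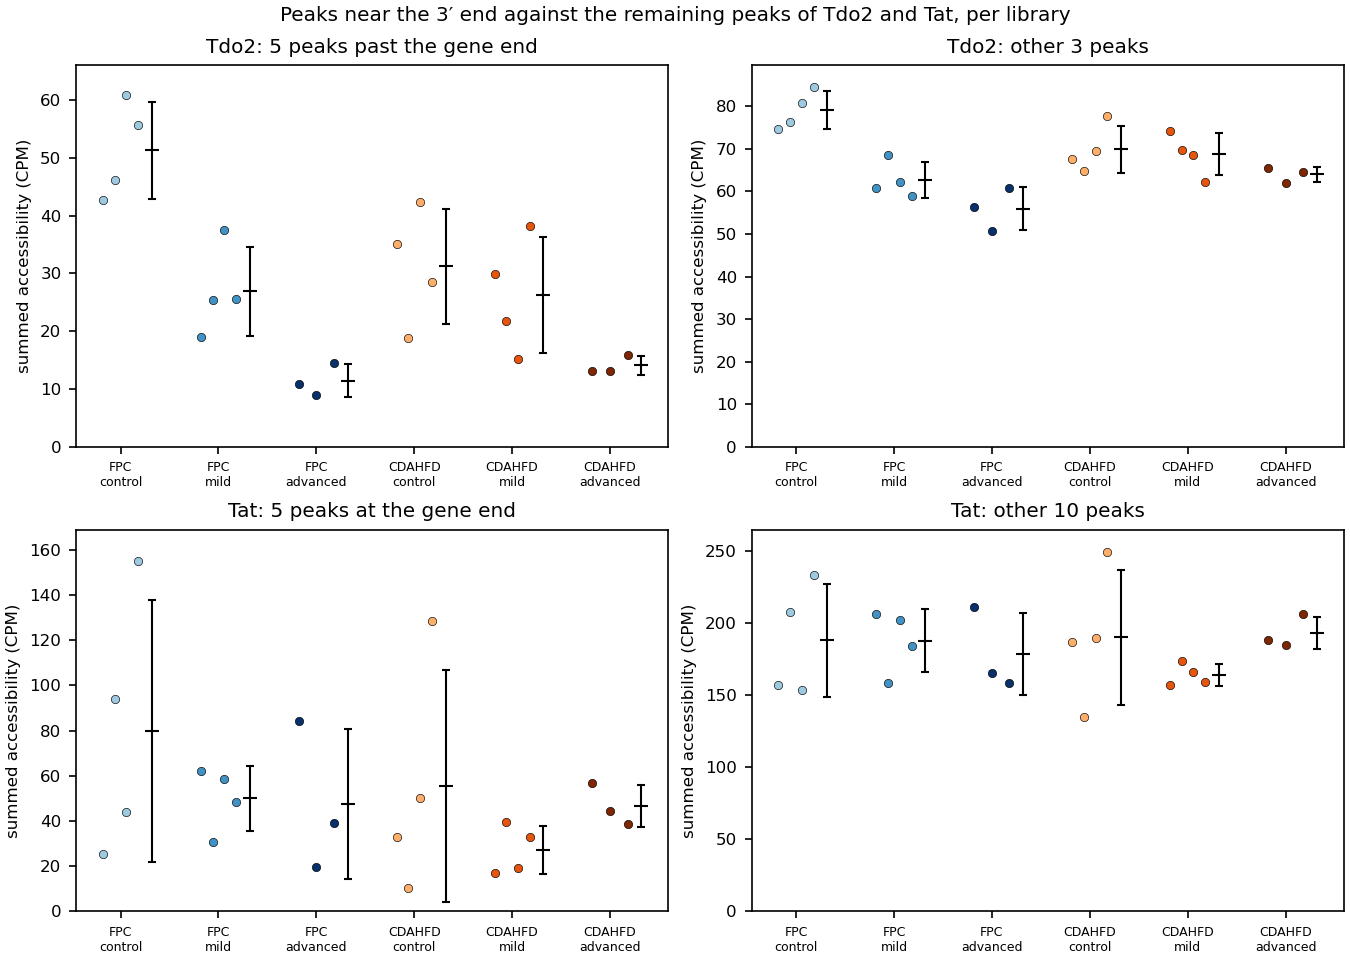
Summed CPM per library (vertical axes, from 0) of the peaks near the gene end and of the remaining peaks of Tdo2 and Tat, by diet and stage; points are libraries and black bars mean ± SD. The Tdo2 end peaks lie at 8.97 to 14.5 CPM in FPC advanced and at 42.6 to 60.8 CPM in FPC control libraries, and the Tat end peaks scatter from 10.5 to 155 CPM within the control groups.

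Tat transfers the amino group of tyrosine and is a textbook target of glucocorticoids. Its sum was not called in any comparison. FPC advanced libraries had 329.8, 202 and 220.4 CPM against 217, 361, 232 and 458 CPM in FPC controls, and CDAHFD advanced libraries had 282, 255 and 280.2 CPM against 263, 171, 286 and 446 CPM in CDAHFD controls. The controls were the most spread group in each diet and overlapped the others, and the FPC advanced change of −0.33 ± 0.24 carried an SE larger than for any other of the 9 genes. Without FPC control replicate 4, the highest library, the FPC mild change was 0.04 ± 0.22 in place of −0.21 ± 0.22, and the advanced one −0.08 ± 0.23. The sum was called lower in CDAHFD mild livers without CDAHFD control replicate 2 (−0.57 ± 0.20, edgeR adjusted p 0.023).

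Relative to level, Tat varied more in 5 peaks at the gene end, 8880 to 10581 bases from the start, than in its other peaks. These 5 are again a group formed after seeing the values. Over the 22 libraries their sum ran from 10.5 to 155 CPM, a 14.8-fold range, with 25.4, 94.1, 44.0 and 155 CPM in the 4 FPC controls alone. The 10 remaining Tat peaks spanned 135 to 249 CPM, with both ends of this range in CDAHFD control libraries. Their SD was 20.8% of the mean in FPC and 24.6% in CDAHFD controls, against 72.8% and 92.6% for the end peaks. A pair of overlapping peaks about 11 kb upstream, at 10954 and 10844 bases, varied with them, with Pearson's r of 0.85 to the end peaks in log2 CPM over the 22 libraries, which share depth and scaling. The start peak (chr8:109990282-109990482, promoter) held 32.03, 27.3 and 22.6 CPM in FPC advanced libraries against 29.6, 26.5, 28.1 and 32.1 CPM in FPC controls. On CDAHFD it held 27.4, 31.4 and 27.9 CPM in advanced against 24.9, 23.5, 24.95 and 26.5 CPM in control libraries, with no overlap. It was not called in any comparison with control, though the CDAHFD advanced change of 0.21 ± 0.10 (edgeR adjusted p 0.090) was called higher with loess offsets, with a minimum mean of 5 CPM and with 1 diet only (adjusted p 0.041, 0.042 and 0.037). The start peak is the only Tat peak within 1 kb. Scaled anew on all peaks within 1 kb, whose median change was 0.19 on FPC, it was called lower in FPC advanced livers (−0.28 ± 0.11, edgeR adjusted p 0.028). That call rests on another baseline and not on further peaks.

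Of single Tat peaks, 3 of 15 fell in CDAHFD advanced livers, a share below the 28.8% of all peaks, and none in FPC advanced livers. The one with the smallest p over both diets lies 14086 bases past the start (chr8:110004422-110004622, intergenic) and fell by 0.61 ± 0.22 on CDAHFD (edgeR adjusted p 0.018), with −0.29 ± 0.23 on FPC. That call was lost without CDAHFD control replicate 4 or CDAHFD advanced replicate 1 or 2 (adjusted p 0.078 to 0.11), and with loess offsets (0.054). Against CDAHFD mild livers, the upstream pair was higher in CDAHFD advanced livers, by 0.68 ± 0.22 and 0.46 ± 0.15 (edgeR adjusted p 0.030 and 0.034).

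Hpd carries out the next step of tyrosine breakdown, and it was called lower in both advanced and in neither mild comparison with control. On FPC its sum was 285, 283, 271 and 280.2 CPM in control, 315, 251, 300.5 and 259.9 CPM in mild and 244, 158 and 207 CPM in advanced libraries. The mild libraries spread to both sides of the controls, whereas all advanced ones lay below both groups. Hpd changed by 0.01 ± 0.10 in FPC mild and fell by 0.47 ± 0.11 in FPC advanced livers against control (edgeR adjusted p 6.2e-04), and by 0.48 ± 0.11 against mild (edgeR adjusted p 0.0013). On CDAHFD it was 258, 263, 301 and 306 CPM in control, 227, 254, 241 and 283 CPM in mild and 207, 204 and 232 CPM in advanced libraries. The advanced fall there was 0.40 ± 0.10 (edgeR adjusted p 0.0023), and the mild change was −0.16 ± 0.10. CDAHFD advanced against mild was −0.23 ± 0.10 and not called (edgeR adjusted p 0.13), except with peaks within 1 kb only (−0.31 ± 0.09, adjusted p 0.033). The FPC advanced fall was 0.30 ± 0.10 with loess offsets and 0.29 ± 0.11 with peaks beyond 1 kb only.

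No Hpd peak was called in FPC mild livers, where 13.6% of all peaks were lower and 15.1% higher. In FPC advanced livers 7 of 14 were called lower, as were 7 in CDAHFD advanced livers, where 28% and 28.8% of all peaks were. The start peak, with the AP-1 letters in its sequence, held 20.2, 13.7 and 17.5 CPM in FPC advanced libraries against 27.1, 23.3, 21.9 and 21.2 CPM in FPC controls. It fell by 0.45 ± 0.15 on FPC and 0.58 ± 0.14 on CDAHFD (edgeR adjusted p 0.011 and 0.0012), and the FPC call was lost without FPC control replicate 1 or FPC advanced replicate 2 (adjusted p 0.055 and 0.11). The strongest loss was 12562 bases from the start (chr5:123170061-123170261, intergenic), past the gene's end. FPC advanced libraries had 5.56, 1.42 and 2.86 CPM there against 11.6, 11.4, 10.1 and 10.1 CPM in FPC controls, and the fall was 1.74 ± 0.32 on FPC and 1.06 ± 0.31 on CDAHFD (edgeR adjusted p 6.2e-05 and 0.0047).

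Hal removes ammonia from histidine. Its sum showed the tightest replicates among the 9 genes in the FPC controls, at 111, 113, 113 and 112 CPM, with 62.5, 74.9, 72.3 and 70.0 CPM in FPC mild and 62.9, 62.7 and 60.2 CPM in FPC advanced libraries. On CDAHFD it was 104, 92.7, 118 and 107 CPM in control, 80.7, 66.3, 64.4 and 83.5 CPM in mild and 63.4, 60.0 and 66.8 CPM in advanced libraries. In both diets the mild and advanced libraries lay wholly below their controls. The falls were 0.86 ± 0.09 and 0.68 ± 0.08 in FPC advanced and mild livers, and 0.73 ± 0.08 and 0.51 ± 0.08 in CDAHFD advanced and mild livers (edgeR adjusted p 1.9e-08, 1.4e-06, 9.5e-08 and 9.6e-06). The steps from mild to advanced were not called in either diet (−0.18 ± 0.09 on FPC and −0.22 ± 0.09 on CDAHFD), the second except without CDAHFD mild replicate 2 or 3 (edgeR adjusted p 0.040 and 0.026). With libraries of 1 diet only, the FPC step was called (−0.18 ± 0.07, edgeR adjusted p 0.046).

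All 3 Hal peaks within 1 kb of the start were lower in all 4 comparisons with control, where 7.63% of all peaks were. The start peak printed above, with AP-1 and C/EBP letters, held 29.0, 24.9 and 27.4 CPM in FPC advanced libraries against 32.5, 35.3, 36.3 and 34.7 CPM in FPC controls, and fell by 0.36 ± 0.09 on FPC and 0.59 ± 0.09 on CDAHFD (edgeR adjusted p 0.0018 and 2.1e-06). The peak in the first exon, 281 bases past the start (chr10:93488949-93489149), fell by 1.20 ± 0.17 and 0.89 ± 0.16 (edgeR adjusted p 1.4e-06 and 3.8e-05), with 14.2, 16.2 and 10.5 CPM in FPC advanced against 30.3, 28.1, 32.3 and 35.4 CPM in FPC control libraries. The peak 517 bases before the start fell by 1.29 ± 0.23 on FPC and 1.17 ± 0.22 on CDAHFD. The peak 3274 bases upstream, which the annotation places at the end of the neighbouring gene Lta4h, was called lower on FPC only (−0.66 ± 0.19, edgeR adjusted p 0.0054, against −0.02 ± 0.18 on CDAHFD), and the difference between diets was not called there. With peaks beyond 1 kb only, the sum of Hal was not called on CDAHFD (−0.12 ± 0.14 in advanced and 0.06 ± 0.13 in mild livers), and on FPC it was −0.50 ± 0.15 and −0.35 ± 0.14.

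Sds turns serine into pyruvate and ammonia, and its 2 peaks both lie in its promoter. Its sum was 23.5, 20.5 and 26.6 CPM in FPC advanced against 34.3, 31.4, 31.2 and 30.2 CPM in FPC control libraries, and 23.9, 23.6 and 28.5 CPM in CDAHFD advanced against 24.0, 18.7, 19.9 and 19.5 CPM in CDAHFD control libraries. The FPC groups did not overlap and the CDAHFD groups did. Sds fell by 0.43 ± 0.15 in FPC advanced and by 0.40 ± 0.14 in FPC mild livers (edgeR adjusted p 0.013 and 0.026), and changed by 0.30 ± 0.14 in CDAHFD advanced livers (edgeR adjusted p 0.073). It was the only 1 of the 9 genes called higher between stages: CDAHFD advanced against CDAHFD mild livers, by 0.49 ± 0.14 (edgeR adjusted p 0.018), with 14.01, 21.6, 14.9 and 20.8 CPM in the mild libraries. Of all genes 9.33% were called higher in that comparison and 8.05% lower, as Tdo2 was.

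Neither Sds peak was called on its own against control in any of the 4 comparisons. The start peak of Sds, at 0.31 ± 0.14 in CDAHFD advanced livers (edgeR adjusted p 0.067), was called higher with RLE scaling, loess offsets and a minimum mean of 5 CPM (0.34, 0.43 and 0.36, adjusted p 0.046, 0.013 and 0.038), and without CDAHFD control replicate 1 or CDAHFD advanced replicate 1 (adjusted p 0.032 and 0.030). The FPC advanced call was lost without FPC advanced replicate 2 (edgeR adjusted p 0.081), and the FPC mild call without any 1 of the FPC mild libraries but replicate 1, or any 1 of the FPC controls but replicate 4 (adjusted p 0.051 to 0.084). The CDAHFD step between stages was lost without mild replicate 1 or advanced replicate 3 (adjusted p 0.075 and 0.097). Without CDAHFD control replicate 1 or FPC mild replicate 1 the CDAHFD advanced change was called higher (0.38 ± 0.15 and 0.32 ± 0.13, adjusted p 0.033 and 0.038).

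Between diets, the advanced change was compared directly as FPC minus CDAHFD. It was called for 3 of the 9 genes, all lower on FPC, where 2.81% of all genes were lower and 1.99% higher. Gls2 differed by −0.45 ± 0.09, Tdo2 by −0.62 ± 0.15 and Sds by −0.73 ± 0.20 (edgeR adjusted p 0.0060, 0.017 and 0.037). The Tdo2 difference was lost without FPC advanced replicate 2 (adjusted p 0.054), and the Sds difference when any 1 of 10 of the 14 libraries in it was left out (adjusted p 0.051 to 0.10). For Ass1, called lower on FPC alone, the difference was −0.32 ± 0.14 and was not called (edgeR adjusted p 0.20), except without FPC advanced replicate 1 (−0.48 ± 0.13, adjusted p 0.041). With peaks beyond 1 kb only, the Gls2 and Tdo2 differences were −0.39 and −0.78 and not called (adjusted p 0.075 and 0.092).

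The same 3 genes also differed between the controls. FPC control against CDAHFD control libraries gave 0.28 ± 0.06 for Gls2, 0.36 ± 0.09 for Tdo2 and 0.63 ± 0.14 for Sds (edgeR adjusted p 0.0073, 0.021 and 0.0075), where 3.67% of all genes were higher and 2.35% lower. In each of these 3 genes, which were called in that comparison, all FPC controls lay above all CDAHFD controls. The share of all genes that do so was not counted. The advanced means were closer and in the other order, at 204 ± 11.3 and 231 ± 8.40 CPM for Gls2, 74.7 ± 9.38 and 88.7 ± 4.43 CPM for Tdo2, and 23.6 ± 3.04 and 25.3 ± 2.77 CPM for Sds (SD, n = 3 FPC and 3 CDAHFD). In Gls2 all FPC advanced libraries (192 to 215 CPM) lay below all CDAHFD advanced ones (224 to 240.0 CPM), and in Tdo2 and Sds they overlapped. The advanced groups were not tested against each other. Diet, weeks on it and age cannot be told apart between the arms, and the diet differences share these controls. The Tdo2 difference between controls was lost without FPC control replicate 3 or 4 or CDAHFD control replicate 2 (adjusted p 0.074, 0.056 and 0.063), and was 0.18 ± 0.07 with peaks within 10 kb (adjusted p 0.12). With peaks beyond 1 kb only, neither the Gls2 nor the Tdo2 difference between controls was called (adjusted p 0.067 and 0.077). For the mild change only Tdo2 was called between diets (−0.47 ± 0.13, edgeR adjusted p 0.038, where 2.78% of all genes were lower and 2.5% higher), and this was lost when any 1 of 7 libraries was left out (adjusted p 0.059 to 0.090) and with peaks within 10 kb (−0.30, adjusted p 0.077), within 1 kb (−0.21, 0.26) or beyond 1 kb only (−0.69, 0.072). The mild difference of Gls2 was −0.26 ± 0.09 and not called (edgeR adjusted p 0.079). It was called with peaks within 1 kb only (−0.26 ± 0.08, edgeR adjusted p 0.041) and with 1 library left out (adjusted p 0.041).

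At the level of single peaks, 44 of 80 were called lower and none higher in FPC advanced livers, where 28% of all peaks were lower and 27.6% higher. In CDAHFD advanced livers 33 were lower and none higher, where 28.8% and 26.7% of all peaks were. Both diets called 27 of the peaks lower, which is 27 of the 44 FPC and of the 33 CDAHFD peaks, and 21.5% of all peaks were lower in both. Of single peaks, 1 differed between diets in the advanced change, the start peak of Gls2 (−0.47 ± 0.10, edgeR adjusted p 0.015, where 0.91% of all peaks were lower and 0.69% higher). Between the controls, the start peaks of Gls2 and Sds were higher in FPC control livers (0.35 ± 0.07 and 0.54 ± 0.14, edgeR adjusted p 0.0031 and 0.032, where 2.05% of all peaks were higher and 0.661% lower). In mild livers 29 were lower on FPC (13.6% of all peaks, with 15.1% higher), and 21 were lower and 2 higher on CDAHFD (20% and 20.7%). The higher pair was an Ass1 peak 11601 bases and a Tdo2 peak 7974 bases upstream (0.39 ± 0.15 and 0.39 ± 0.14, edgeR adjusted p 0.039 and 0.031). All 4 comparisons with control called 13 of the 80 peaks lower, as they did 7.63% of all peaks, and 28 of the 80 were called in none, as were 26.5% of all peaks.

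**Figure D4:**
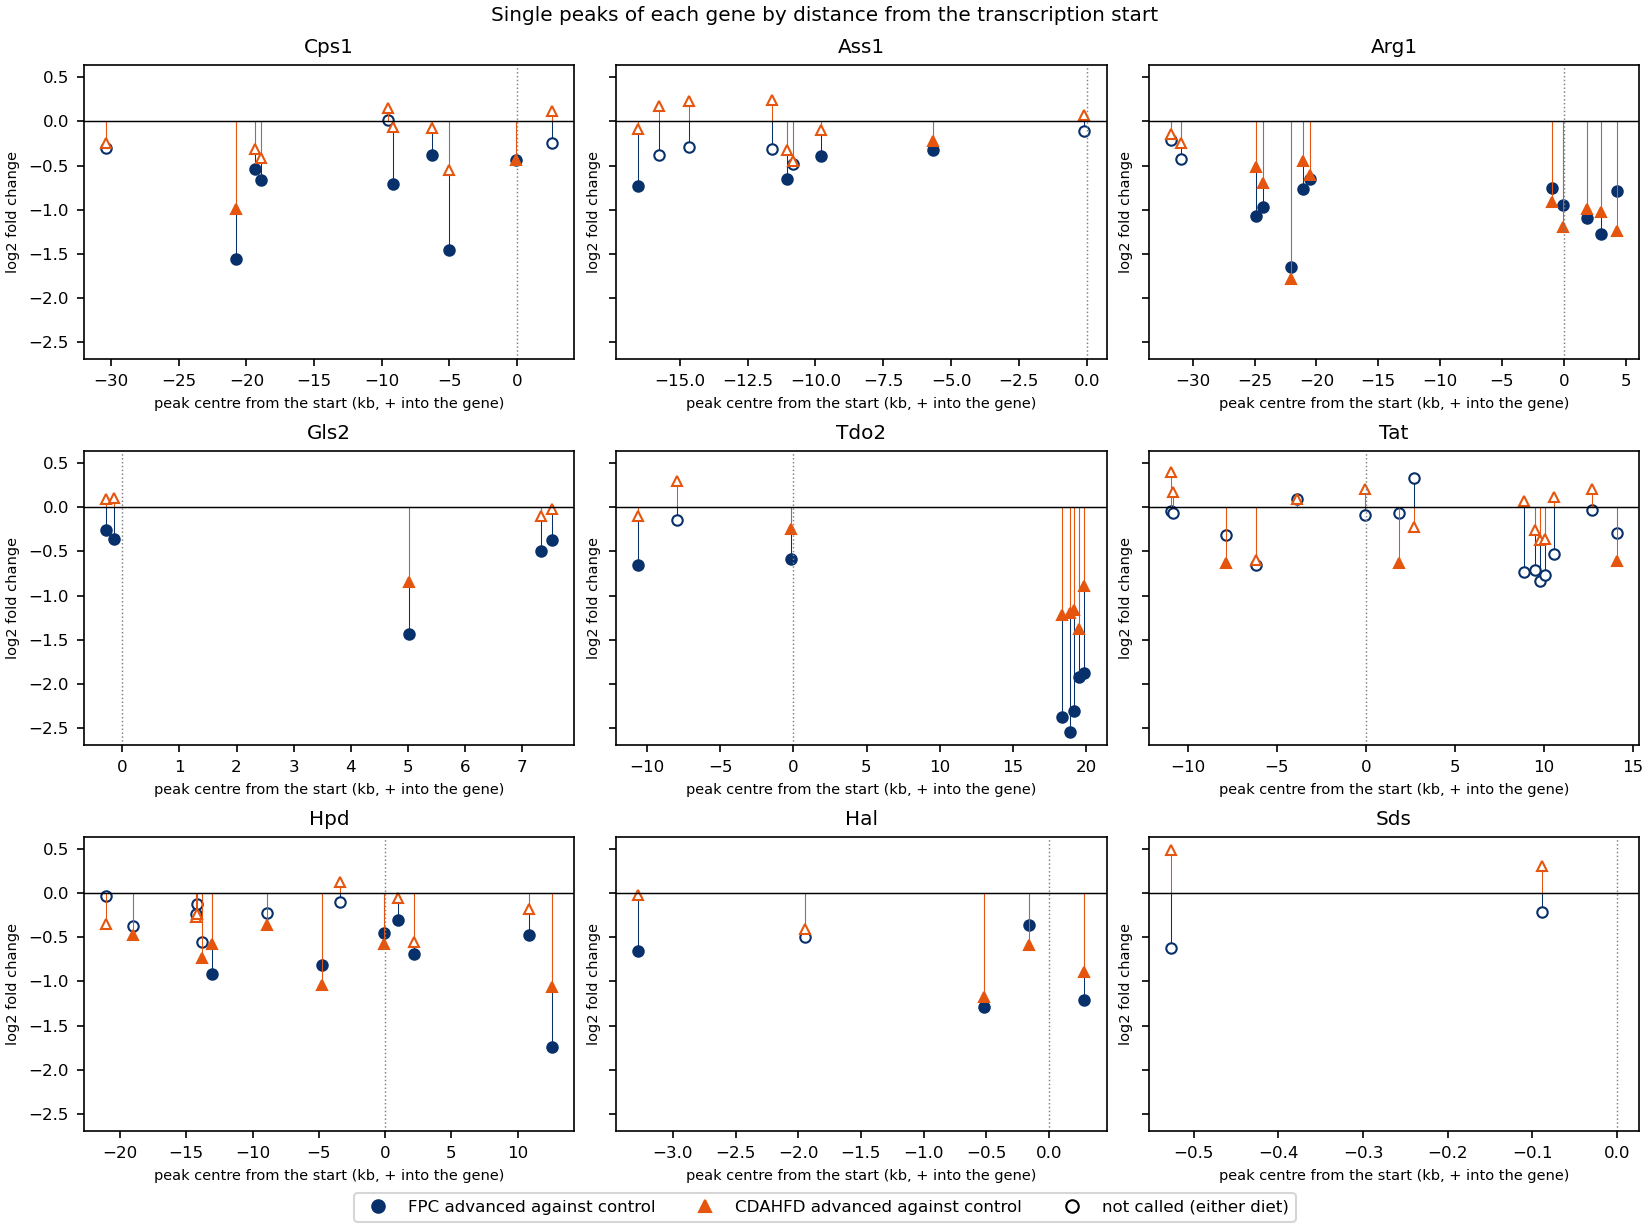
Log2 fold change of every peak (vertical axis) in advanced against control livers by distance of its centre from the transcription start in kb (horizontal axis, positive into the gene), for FPC (circles) and CDAHFD (triangles); filled symbols were called. The deepest FPC losses are the Tdo2 peaks 18372 to 19884 bases from the start, and no filled symbol lies above 0.

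Close to the start, 11 of the 15 peaks within 1 kb fell in FPC advanced and 8 of 15 in CDAHFD advanced livers. Of all 20072 peaks within 1 kb of a start, 12.1% were lower and 38.9% higher on FPC, and 13.7% lower and 31.5% higher on CDAHFD. The start peaks that were not called in either advanced comparison were those of Ass1, Tat and Sds. Of the 65 peaks farther out, 33 were lower on FPC and 25 on CDAHFD, where 32.3% and 32.7% of all 36715 peaks at that distance were lower and 23.9% and 25.7% higher, so that the CDAHFD count lies near the share over all peaks. Their median change was −0.54 on FPC and −0.35 on CDAHFD, against −0.13 and −0.11 over all of those peaks.

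Mild and advanced livers are different mice after equal weeks on the diet, so the ratio of their changes describes groups and not a course in time, and it was not tested between genes. In FPC livers the mild change was 79.3% to 91.3% of the advanced one for Cps1, Gls2, Hal and Sds, 48.6% to 65.0% for Ass1, Arg1 and Tdo2, and −1.86% for Hpd. On CDAHFD it was 140% for Cps1, 81.1% for Arg1, 69.6% for Hal, 41.3% for Hpd and 27.2% for Tdo2. The direct comparison of FPC advanced with FPC mild livers called Arg1, Tdo2 and Hpd lower (16.1% of all genes were lower and 15.4% higher), and 17 of the 80 peaks (14.6% of all peaks were lower and 14.7% higher), 9 of them at Hpd. Without FPC advanced replicate 2 or FPC mild replicate 3 these were 4 and 9 peaks. On CDAHFD 5 peaks were lower and 4 higher in advanced against mild livers (7.26% and 9.28% of all peaks). Without CDAHFD mild replicate 1 or 4 or CDAHFD advanced replicate 1, 2 or 3 the 9 calls became 3, 2, 4, 2 and 5. The 4 higher ones were the upstream pair of Tat, the start peak of Gls2 and that of Sds.

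Each gene was also set beside the non-member gene whose sum varied most like its own over the 22 libraries, out of 13743 genes with a mean of at least 10 CPM. These were Lancl1 for Cps1 (Pearson's r 0.93), Aldh1l1 for Ass1 (0.88), Prpf18 for Arg1 (0.96), Igfbp5 for Gls2 (0.90), Nat10 for Tdo2 (0.93), 1810012K16Rik for Tat (0.89), Amigo3 for Hpd (0.93), Zhx2 for Hal (0.97) and Babam1 for Sds (0.73). The values describe these libraries, which share depth, scaling and stage. Among the 9 genes themselves Arg1 and Hal were most alike (0.91), and Sds was the least like 6 of the other 8, down to 0.22 with Hal. Prpf18 fell by 1.03 and 0.99 in FPC and CDAHFD advanced livers (edgeR adjusted p 2.8e-07 and 2.1e-07), and Zhx2 by 0.68 and 0.57 (edgeR adjusted p 6.1e-09 and 4.3e-08).

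The other genes of these pathways were taken from 10 lists by function, with the members of each that had the smallest p over both diets named below, and 85 of 87 had a peak within 50 kb. In FPC advanced livers 57 were lower and 6 higher, with a median of −0.37, and in CDAHFD advanced livers 52 were lower and 6 higher, with a median of −0.27. Over all genes 30.5% were lower and 30.7% higher on FPC, and 30% and 28.5% on CDAHFD, the shares to set beside each list below. In mild livers 39 were lower and 7 higher on FPC, where 20.6% of all genes were lower and 19.7% higher. On CDAHFD 36 were lower and 2 higher in mild livers, where 23.3% and 22.1% of all genes were.

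Among the other urea cycle genes 3 of 6 fell and 1 rose in both advanced comparisons. Over all genes 30.5% fell on FPC and 30% on CDAHFD. Otc, which makes citrulline from the carbamoyl phosphate of Cps1, fell by 0.81 ± 0.10 on FPC and 0.59 ± 0.09 on CDAHFD (edgeR adjusted p 1.5e-07 and 5.1e-06), and Slc25a13, the mitochondrial aspartate carrier, by 0.51 ± 0.06 and 0.31 ± 0.06. Nags and Asl, the enzymes that switch on Cps1 and that release arginine, were not called, with −0.19 ± 0.10 and −0.09 ± 0.11 on FPC. Arg2, the mitochondrial arginase that is usually low in liver, was named after its value was seen: it rose by 2.44 ± 0.39 on FPC and 2.005 ± 0.37 on CDAHFD (edgeR adjusted p 1.1e-05 and 5.3e-05). Its level stayed low, at 6.90 ± 0.442 CPM in FPC advanced against 1.16 ± 0.676 CPM in FPC control and 5.12 ± 1.35 CPM in CDAHFD advanced against 1.24 ± 0.248 CPM in CDAHFD control livers (SD, n = 3 and 4).

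The genes of tryptophan and kynurenine, histidine and lysine breakdown were lower throughout, at 8 of 8, 3 of 3 and 4 of 4 measured genes in both advanced comparisons. After Tdo2 in the route come Aadat, a kynurenine aminotransferase, which fell by 1.02 ± 0.09 on FPC and 0.74 ± 0.09 on CDAHFD, and Haao, which works on hydroxyanthranilate and fell by 0.70 ± 0.08 and 0.81 ± 0.08. After Hal, Amdhd1 and Ftcd fell by 0.69 ± 0.07 and 0.66 ± 0.08 on FPC and by 0.40 ± 0.07 and 0.46 ± 0.08 on CDAHFD. The lysine genes Dhtkd1 and Aass fell by 1.01 ± 0.09 and 0.91 ± 0.06 on FPC and by 0.89 ± 0.09 and 0.40 ± 0.06 on CDAHFD. All of these had edgeR adjusted p of 3.7e-05 or smaller.

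Of 6 phenylalanine and tyrosine genes 5 fell in each diet, among them Fah, the last enzyme of tyrosine breakdown, by 0.59 ± 0.06 on FPC and 0.28 ± 0.06 on CDAHFD, and Pcbd1, which recycles the cofactor of phenylalanine hydroxylase, by 0.46 ± 0.06 and 0.43 ± 0.06. Of 10 glutamate and glutamine genes 6 fell on FPC, and 4 fell and 1 rose on CDAHFD. Glul, the glutamine synthetase of hepatocytes around the central vein, fell by 0.51 ± 0.12 on FPC and 0.86 ± 0.10 on CDAHFD, and the aspartate aminotransferase Got2 by 0.52 ± 0.06 and 0.51 ± 0.06. Of 13 serine, threonine and glycine genes 5 fell and 1 rose on FPC, and 8 fell and 1 rose on CDAHFD. Over all genes 30.5% fell on FPC and 30% on CDAHFD, so the 5 of 13 on FPC is not far above that share. Dmgdh, which breaks down dimethylglycine, fell by 1.54 ± 0.18 and 1.52 ± 0.18, and Agxt, which detoxifies glyoxylate, by 0.83 ± 0.10 and 0.78 ± 0.10.

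Of 18 measured branched-chain genes 13 fell and 3 rose on FPC, and 9 fell and 1 rose on CDAHFD. Mccc2 and Pcca, subunits of biotin-dependent carboxylases, fell by 0.57 ± 0.06 and 0.59 ± 0.07 on FPC and by 0.41 ± 0.06 and 0.50 ± 0.06 on CDAHFD. Of 4 proline and ornithine genes 3 fell on FPC, and 2 fell and 1 rose on CDAHFD. Prodh, the proline oxidase, and Prodh2, which acts on hydroxyproline, fell by 0.86 ± 0.10 and 0.48 ± 0.10 on FPC and by 0.55 ± 0.09 and 0.48 ± 0.09 on CDAHFD. Of 13 regulators of amino acid breakdown 7 fell and 1 rose on FPC, and 6 fell and 1 rose on CDAHFD. The shares that fell over all genes were 30.5% on FPC and 30% on CDAHFD. Ppargc1a, a coactivator induced by glucagon in fasting, fell by 0.93 ± 0.09 and 0.74 ± 0.09, and Hnf4a, a hepatocyte identity factor that is also among the hepatocyte markers above, by 0.34 ± 0.06 and 0.18 ± 0.06.

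**Figure D5:**
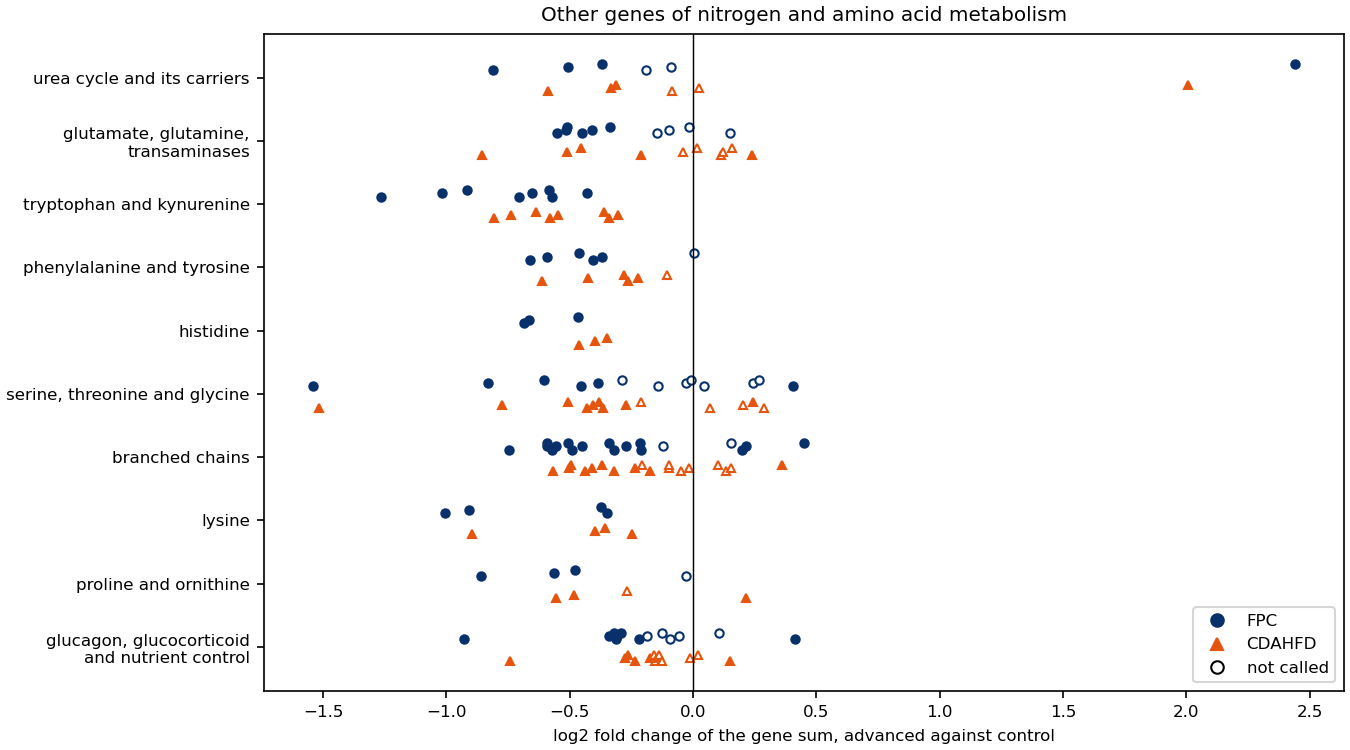
Log2 fold change of the gene sum in advanced against control livers (horizontal axis) for the other measured genes of each list (vertical axis), with FPC as circles and CDAHFD as triangles; filled symbols were called. All symbols of the tryptophan, histidine and lysine lists lie left of 0, and Arg2 of the urea cycle list lies farthest right, at 2.44 and 2.005.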

How the data were processed

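The deposited table of un-normalized ATAC-seq values gives expected counts per peak and library in steps of 0.5, and 47.8% of them carry a 0.5; what a 0.5 stands for is not given in the sources used here. A second deposited table holds the signal after the authors' scaling by 1 factor per library and was used only to check the first. BWA 0.7.5a-r405, SAMtools, HOMER and DESeq2 with mm10 are named, without roles, per the submitters' processing notes. Whether peaks were called per library or on pooled libraries is not given in the sources used here.

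Counts were rounded to whole numbers, and gene sums added the peaks within 50 kb of the start. No peak or gene was dropped for low counts. edgeR 4.0.16 in R 4.3.3 fitted 6 groups over all 22 libraries (TMM scaling, quasi-likelihood test), with p-values adjusted by Benjamini-Hochberg over all 15686 genes or 68827 peaks. An SE is the size of the log2 change divided by the root of its F value. Replicates of a group correlated at 0.925 to 0.969 and no library pair was identical. On simulated FPC advanced against FPC control counts, 88.1% of gene sums changed 1.5-fold and 98.5% changed 2-fold were called, with 8 false calls among 15686. For peaks these were 29.9% and 74.6%, with 9 false calls among 68827. The simulation changed 67 gene sums or peaks 1.5-fold, 67 2-fold and 66 4-fold, with 1 common spread. In the data far more were called, which loosens the adjusted p cutoff, so these shares are not the detection rates of the tests above.

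The text names all 9 genes, of each the peak nearest the start and the peak with the smallest p in the mean of both diets, and up to 2 genes per pathway list by the same p. Other peaks and pathway genes were named after values were seen, and not all of them are marked so. Members and lists were chosen with earlier results of these data known. Alternatives used RLE scaling, limma 3.58.1 loess offsets, DESeq2 1.42.0, other filters and peak distances, 1 diet at a time and each library left out. Gene sums at another peak distance were scaled anew on those peaks alone. In the main fit, all peaks within 1 kb had median advanced changes of 0.19 on FPC and 0.11 on CDAHFD. Farther out these medians were −0.13 and −0.11, so values within and beyond 1 kb have unlike baselines.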

Additional observations from a re-analysis of the deposited data

Results flagged for a closer look

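The start peak of Hpd in CDAHFD mild replicate 4 had 21.4 CPM, apart from the other 3 libraries of its group at 18.8 to 19.2 CPM. It was the only such library in 104 groups of 4 examined, where chance alone would give about 1 in 20, or 5.2.

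The advanced change differed between the diets, tested directly as FPC minus CDAHFD in edgeR, for Gls2 (−0.45, adjusted p 0.0060), Tdo2 (−0.62, adjusted p 0.017), Sds (−0.73, adjusted p 0.037) and the start peak of Gls2 (−0.47, adjusted p 0.015). The mild change differed for Tdo2 (−0.47, edgeR adjusted p 0.038). The FPC and CDAHFD controls, which enter these differences, differed in the same 3 genes.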

How the results depend on the processing

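No paired analysis was possible because the libraries are taken as separate mice and replicate numbers only name them. The counts of genes called against control were 7 to 9 in FPC advanced, 5 to 6 in FPC mild, 3 to 5 in CDAHFD advanced and 3 to 5 in CDAHFD mild livers over the alternatives that keep all libraries. With peaks beyond 1 kb only, where Sds has none, CDAHFD advanced livers had 3 genes called, and 0 were called for CDAHFD advanced against mild, for either diet difference and between controls; Hal was then 0.06 in place of −0.51 in CDAHFD mild and −0.12 in place of −0.73 in CDAHFD advanced livers. With peaks within 10 kb the mild diet difference also had 0. Among peaks, that difference had 1 call with loess offsets or DESeq2, against 0, and the controls 4 with DESeq2, against 2. Leaving out 1 library gave 7 to 8, 5 to 7, 4 to 6 and 3 to 5 genes in the 4 comparisons with control, 2 to 4 for FPC advanced against mild, 0 to 3 for CDAHFD advanced against mild, 1 to 3 and 0 to 2 for the advanced and mild diet differences, and 2 to 3 between controls. For peaks it gave 31 to 47, 27 to 32, 26 to 39 and 17 to 33 against control, 4 to 19 and 2 to 9 between stages, 1 to 2 and 0 to 1 for the diet differences, and 1 to 4 between controls. Cps1 in CDAHFD advanced livers was not called with loess offsets (edgeR adjusted p 0.056), peaks within 10 kb (0.055) or beyond 1 kb (0.20). Tat in FPC advanced livers was called with peaks within 1 kb (−0.28, edgeR adjusted p 0.028). There its start peak alone was left and was scaled anew on all peaks within 1 kb. Leaving out the second of overlapping peaks (2469 of all, 4 of the members) was added after seeing the data. The causes were not tested. For peaks, 29.9% of simulated 1.5-fold changes were found at this depth and number of libraries. The simulation changed far fewer peaks than were called in the data, so this is not the detection rate here.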
